A study of Mus musculus with 6 samples.

Results

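The fatty acid binding proteins Fabp1 to Fabp7 are 7 mouse genes represented on the array by 13 probe sets annotated to exactly 1 of them, out of 34945 such probe sets and 45101 in all. They were examined in 2 kinds of stromal stem cell cultured from the bone marrow of adult mice: neural crest stem cells (NCSC, 3 arrays) and mesenchymal stem cells (MSC, 3 arrays). Both came from double-transgenic wnt1/CRE-R26R-lacZ mice aged 10 weeks on a C57BL/6 x SV129 background, in which Cre driven by Wnt1 sequences switches on lacZ in cells descended from the neural crest. Both were grown untreated in Mesencult medium for at least 5 passages before clonal selection, and the labels do not say whether replicates are separate clones or animals, so spread between arrays may be technical and clone and cell type cannot be told apart. The 7 genes were chosen by their values on these same arrays, the difference between NCSC and MSC being already known, so that contrast is described for them with no test.

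The labels state female mice, but the arrays went against this in both cell types. The 3 probe sets of Xist, the RNA of the inactive X chromosome, lay under the limit of 4 on the log2 scale on all arrays, the brightest of them at 2.13, 2.12 and 2.12 in NCSC and 2.12 on all MSC arrays. The Y-linked genes Eif2s3y (10.42, 10.39 and 10.82 in NCSC, and 10.87, 11.29 and 10.96 in MSC) and Uty (7.68, 7.70 and 8.13 in NCSC, and 8.65, 8.59 and 8.68 in MSC) were above it on all 6. Kdm5d, also Y-linked, was above it in NCSC alone (8.66, 8.58 and 9.24 in NCSC, and 2.16, 2.16 and 2.12 in MSC). All values are GCRMA intensities on the log2 scale, with a floor of 2.12, at which each array had 33.5% to 34.5% of its probe sets. A value above 4 was taken as above background. NCSC 3 stood apart from the other NCSC arrays, with 4.98% and 4.63% of 10501 genes more than 2-fold from NCSC 1 and NCSC 2, against 0.438% between NCSC 1 and NCSC 2. MSC 2 likewise had 2.69% and 2.62% of genes that far from MSC 1 and MSC 3, against 0.409% between those. The crest regulator Sox10 was at 13.08, 12.83 and 12.62 in NCSC and 3.92, 4.82 and 4.17 in MSC, and Vcam1, a stromal adhesion molecule, at 8.65, 8.52 and 8.54 in NCSC and 12.66, 12.60 and 12.58 in MSC.

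Fatty acid binding proteins are small cytosolic proteins folded as a barrel that closes around a long-chain fatty acid. They carry the ligand from the plasma membrane to lipid droplets, mitochondria and the endoplasmic reticulum, and some deliver it to nuclear receptors of the PPAR family. Each is named after the tissue where it was first found: Fabp1 liver, Fabp2 and Fabp6 intestine, Fabp3 heart, Fabp4 fat cells and macrophages, Fabp5 skin and Fabp7 brain, where it marks radial glia and, in peripheral nerve, immature Schwann cells.

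Of the 7 genes, 4 were above the limit on any array and 3 passed the filter on low values, which asked for at least 3 of the 6 arrays above the limit. These 3 were Fabp4, Fabp5 and Fabp7, with 5 of the 13 probe sets. Their patterns differed: Fabp4 was bright in MSC and near background in NCSC, Fabp7 was above the limit on NCSC arrays alone, and Fabp5 was bright in both. The arrays of the cell types did not overlap for 3 of these 5 probe sets, the same being the case for 68.4% of the 18640 probe sets that passed and for 71.2% of genes. For Fabp7 and the dimmer Fabp4 probe set that passed, the lack of overlap follows from the filter. No array of the other cell type was above the limit, so they passed only with all 3 arrays of the brighter one above it. In bulk RNA, fewer cells that express a gene and less RNA per cell cannot be told apart.

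**Figure D1:**
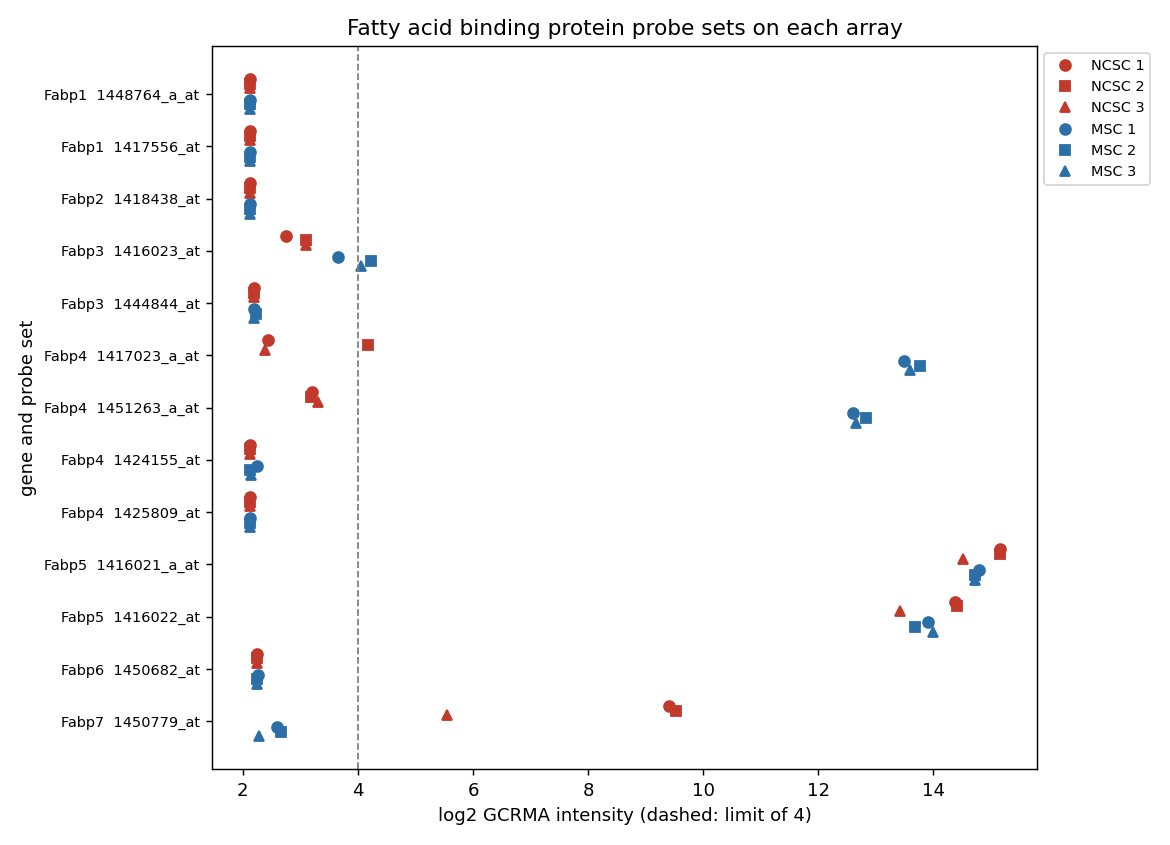
Log2 GCRMA intensity (horizontal axis) of the 13 probe sets of Fabp1 to Fabp7 on each of the 6 arrays, NCSC in red and MSC in blue, with small vertical offsets between arrays and a dashed line at the limit of 4. The Fabp4 probe sets that passed lie between 12.61 and 13.77 in MSC, Fabp7 lies at 9.40, 9.52 and 5.54 in NCSC, and the NCSC 3 point of Fabp5 lies to the left of all MSC points.

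Fabp7, the brain form, had log2 intensities of 9.40, 9.52 and 5.54 in NCSC 1, 2 and 3, against 2.60, 2.67 and 2.28 in MSC. All NCSC arrays were above the limit and no MSC array was, without which Fabp7 would not have passed the filter. NCSC 3 lay 3.92 below the mean of the other NCSC arrays. The means were 8.15 ± 2.26 in NCSC and 2.52 ± 0.21 in MSC (SD, n = 3 each). Since the MSC values were all under the limit, the difference is given as a bound: with the MSC arrays set to the limit, Fabp7 was at least 17.8-fold higher in NCSC. This bound was 43.9-fold without NCSC 3, 11.5-fold without NCSC 1 and 11.1-fold without NCSC 2. Fabp7 has a single probe set on this array.

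The promoter table matched 5 of the 7 members, Fabp1, Fabp2, Fabp3, Fabp6 and Fabp7. The Fabp7 promoter is shown because Fabp7 was the member above background in NCSC alone, and because NFI factors, which bind TTGGC repeats in DNA, are known regulators of Fabp7 in glia. It runs from 250 bases before to 50 after the start of the gene (chr10:57784673-57784972, plus strand, GRCm38.p6, RefSeq). The capitals mark its match to part of the NFI palindrome, TTGGC and GCC with any 5 bases between them. GCC begins GCCAA, the reverse complement of TTGGC, but CG follows it here, so this repeat is incomplete.
Fabp7: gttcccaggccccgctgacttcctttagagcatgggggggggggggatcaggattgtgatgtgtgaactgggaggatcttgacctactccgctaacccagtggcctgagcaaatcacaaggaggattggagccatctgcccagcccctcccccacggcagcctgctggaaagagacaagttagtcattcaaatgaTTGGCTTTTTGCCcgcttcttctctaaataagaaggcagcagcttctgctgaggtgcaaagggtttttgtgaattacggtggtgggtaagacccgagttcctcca
The match began at position -55, counted from the start, and shared bases with a CCAAT box on the other strand that began at -56. Searched on both strands, this partial palindrome was found in 1.34% of 27025 mouse promoters of the same length, and in none of the other 4 member promoters. The octamer ATTTGCAT (1.75% of promoters), the GC box GGGCGG (35.9%) and the direct repeat of AGGTCA with 1 base between, bound by PPAR with RXR (0.0444%), had no match in any of the 5 windows. The SOX core ACAANG (41.6% of promoters) matched once, at -135 in the Fabp7 window. The E-box CANNTG (72.1%) was found in all 5 windows, at -118 and -62 in that of Fabp7. A TATA box (TATAAA, 14.2% of promoters) was found in the Fabp1 window at -30 and, on the other strand, in the Fabp6 window at -29. Base composition ranged from 38.7% G and C in the Fabp2 window to 65.0% in that of Fabp3, which held 22 CG pairs against 3 each for Fabp1, Fabp2 and Fabp6 and 6 for Fabp7. Such matches describe the letters only.

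Fabp4, the adipocyte and macrophage form, showed the opposite pattern. Its brightest probe set was at 2.44, 4.18 and 2.38 in NCSC, against 13.49, 13.77 and 13.59 in MSC. NCSC 2 was the only NCSC array above the limit, and by little, whereas all MSC arrays lay near the upper end of the scale. The means were 3.00 ± 1.02 in NCSC and 13.62 ± 0.142 in MSC, and with NCSC values under the limit set to it, Fabp4 was at least 752-fold lower in NCSC. Leaving out any 1 array kept this bound between 714-fold and 787-fold. A further Fabp4 probe set was at 3.20, 3.18 and 3.30 in NCSC and 12.61, 12.83 and 12.65 in MSC, at least 414-fold lower. No NCSC array reached the limit on it. The other 2 Fabp4 probe sets were under the limit on all 6 arrays, the first at 2.12 on all NCSC arrays and 2.25, 2.12 and 2.15 in MSC and the second at the floor, so the 4 probe sets of this gene did not show the same picture.

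Fabp5, the epidermal form, which is also made by many dividing cells, was bright on every array. Its brightest probe set was at 15.15, 15.15 and 14.52 in NCSC, against 14.79, 14.73 and 14.73 in MSC. NCSC 1 and NCSC 2 were above all MSC arrays and NCSC 3 below all of them, so the groups overlapped. The difference was 0.19 ± 0.184 (SE), with a 95% confidence interval of -0.26 to 0.64, or 0.40 without NCSC 3. The other Fabp5 probe set again had NCSC 3 lowest of the 6 arrays, at 14.37, 14.40 and 13.42 in NCSC and 13.90, 13.68 and 14.00 in MSC. That difference was 0.20 ± 0.28 (95% confidence interval -0.48 to 0.89), or 0.52 without NCSC 3.

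The other 4 genes did not pass the filter. Fabp3, the heart and muscle form, came nearest: its brighter probe set was at 2.75, 3.10 and 3.10 in NCSC, against 3.65, 4.22 and 4.06 in MSC. MSC 2 and MSC 3 were just above the limit. With means of 2.99 ± 0.203 in NCSC and 3.98 ± 0.293 in MSC, both under the limit, no fold is given. The other Fabp3 probe set was between 2.20 and 2.23 on all arrays. Fabp1, the liver form, by both of its probe sets, and the intestinal form Fabp2 stood at the floor of 2.12 on all 6 arrays. Fabp6, the bile acid carrier of the ileum, was between 2.24 and 2.27.

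Markers of the tissues that give these proteins their names were mostly below the limit. None of the 5 measured adipocyte markers (Adipoq, Cidec, Lep, Retn and Lipe) was above it on any array, and their summed linear intensity was 21.8 on every NCSC and every MSC array. Fabp4 is also made by capillary endothelium, and all 6 endothelial markers (Pecam1, Cdh5, Kdr, Tek, Emcn and Vwf) were under the limit on all arrays, with a sum of 26.2 in both cell types. Of 7 macrophage markers, 2 were above the limit on all NCSC arrays and 1 on all MSC arrays, while Ptprc, Adgre1 and Itgam were under it on all arrays. Their sum was 724 to 874 in NCSC and 141 to 145 in MSC. Cd68, at 8.75, 8.89 and 8.76 in NCSC and 2.22, 3.15 and 2.92 in MSC, was higher on each NCSC array than on any MSC array, as was Lyz2. Cd14 went the other way, at 2.19, 2.16 and 2.19 in NCSC and 4.63, 3.96 and 5.15 in MSC. The part of such cells in the Fabp4 values was not tested. No marker of muscle (7 measured), hepatocytes (4) or enterocytes (5) was above the limit on any array. Of 4 keratinocyte markers, Krt14 and Krt1 were under it on all arrays, and the sum was 637 to 800 in NCSC and 364 to 456 in MSC. Krt5 was at 5.05 on all 6 arrays, and Krt10 at 9.22, 9.57 and 9.26 in NCSC and 8.33, 8.60 and 8.69 in MSC. Of 5 neuronal markers, Rbfox3, Syt1 and Snap25 were under the limit on all arrays, with sums of 402 to 435 in NCSC and 178 to 435 in MSC. Tubb3 was above it on all 6, at 8.67, 8.58 and 8.70 in NCSC and 8.04, 7.18 and 7.82 in MSC. Stmn2 was above it in MSC alone (2.61, 2.45 and 2.38 in NCSC, and 7.31, 4.29 and 7.12 in MSC). Of 7 markers of neural crest and glia, 5 were above the limit on all NCSC arrays and none on all MSC arrays, with sums of 24800 to 33600 in NCSC and 43.6 to 62.1 in MSC. Gfap was under it on all arrays. Stromal markers had high sums in both, at 108000 to 119000 in NCSC and 114000 to 117000 in MSC, with Lepr under the limit on all arrays. These sums hide differences between the markers. Pdgfra (6.06, 6.28 and 6.96 in NCSC, and 9.46, 10.01 and 9.36 in MSC), Vcam1, Col1a1 and Cxcl12 were lower on each NCSC array than on any MSC array. Pdgfrb was higher on each NCSC array than on any MSC array, and Col1a2 overlapped.

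Tests on genes outside the family used limma on 10501 genes, of which 64.1% were called at an adjusted p under 0.05, 35.0% higher and 29.1% lower in NCSC. Adjusted p-values are by Benjamini-Hochberg over these genes. The binding proteins belong to a larger family of intracellular lipid carriers that includes the retinoid binding proteins. The list held 8 relatives, of which 7 had a probe set and 3 could be tested: 1 was higher and 2 were lower. Pmp2, the fatty acid binding protein of peripheral myelin, was at 13.53, 13.50 and 10.55 in NCSC, against 2.67, 2.59 and 2.12 in MSC. It was at least 369-fold higher in NCSC (adjusted p = 0.000114), a bound that was 732-fold without NCSC 3, 260-fold without NCSC 1 and 263-fold without NCSC 2. Its single probe set was, like that of Fabp7, lower on NCSC 3. Crabp1 and Crabp2, which bind retinoic acid in the cytosol, were lower in NCSC. Crabp1 was at 5.77, 6.10 and 6.69 in NCSC and 11.36, 10.45 and 11.45 in MSC, a difference of -4.90 ± 0.344 (SE, adjusted p = 6.45e-05). Crabp2 was at 4.11, 4.71 and 3.16 in NCSC and 10.20, 8.55 and 10.31 in MSC, at least 42.6-fold lower (adjusted p = 0.000316). Neither carrier overlapped between cell types. Fabp9, Fabp12, Rbp2 and Rbp7 were not above the limit on any array.

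Fabp4, Fabp5, Pmp2, Fabp9 and Fabp12 form a cluster on chromosome 3 in the RefSeq annotation of GRCm38.p6, in the order Fabp5, Pmp2, Fabp9, Fabp4, Fabp12. Between Fabp5 and Pmp2 the annotation places the long noncoding RNA Gm33365 and the pseudogene Gm9833, neither with a probe set. Genes of this cluster had unlike patterns. Fabp5 was bright in both cell types, Pmp2 was above the limit in NCSC alone, Fabp9 and Fabp12 were at or near the floor of 2.12 in both, and Fabp4 was bright in MSC. Beyond the cluster, of the 10 nearest genes with a probe set, 5 on either side, 9 were tested, and of these 7 were higher in NCSC, none was lower and 2 were not called, against 35.0% higher among all tested genes. The differences of the called neighbours were smaller than those of Pmp2 and Fabp4. On the side of Fabp5, Mrps28 (a mitochondrial ribosomal protein) rose by 0.56, Tpd52 by 1.16, Zbtb10 by 1.19, Zfp704 by 1.11 and the adaptor Pag1 by 1.81, with adjusted p from 8.06e-05 to 0.00413. A dimmer probe set of Pag1 pointed the other way, at -0.57 (adjusted p = 0.0282 over all probe sets that passed). On the side of Fabp12, Zfand1 rose by 0.83 (adjusted p = 0.00352) and the sorting nexin Snx16 by 0.94 (adjusted p = 0.00282). Impa1 (0.16, adjusted p = 0.134) and Chmp4c (0.32, adjusted p = 0.247) were not called, and Ralyl was at the floor.

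**Figure D2:**
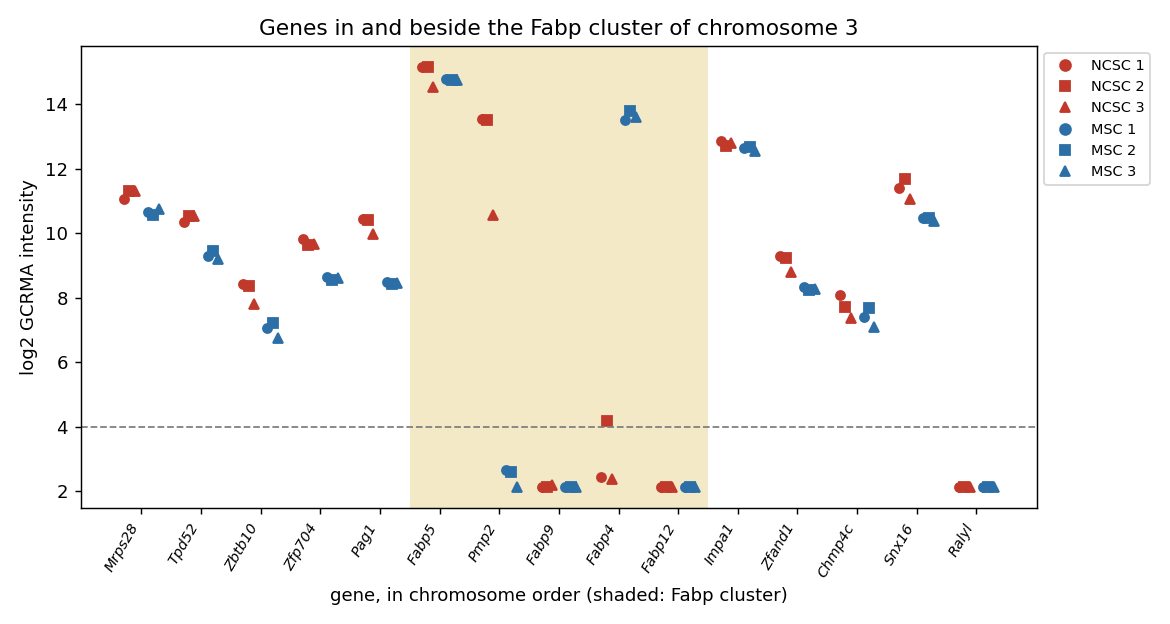
Log2 GCRMA intensity (vertical axis) of the brightest probe set of each gene in and beside the Fabp cluster of chromosome 3, in chromosome order (horizontal axis), with NCSC in red at the left and MSC in blue at the right of each gene, and a dashed line at the limit of 4. Within the shaded cluster Pmp2 is at 13.53, 13.50 and 10.55 in NCSC and under 4 in MSC, while Fabp4 is between 13.49 and 13.77 in MSC and 2.38 to 4.18 in NCSC.

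The low value of Fabp7 on NCSC 3 was shared by few of the genes that passed the filter. Of these 10501 genes, 30 were at least 4-fold lower on NCSC 3 than the mean of NCSC 1 and NCSC 2, and 16 at least 4-fold higher. Fabp7 was the 4th from the lowest by this deviation (-3.92) and Pmp2 the 11th (-2.97). A gene under the limit on all MSC arrays passed only with all 3 NCSC arrays above it. Such genes that fell under it on NCSC 3 are thus missing from these counts and from the crest genes that passed. S100b, a calcium-binding protein of glia that did not pass the filter, was at 7.72, 7.29 and 2.15 in NCSC and 2.15 on all MSC arrays. Its deviation was -5.36. Among the listed markers of neural crest and glia, those that passed lay closer together than Fabp7 and Pmp2. For them NCSC 3 deviated from the other NCSC arrays by -0.34 for Sox10, -0.76 for the neuregulin receptor Erbb3, -0.59 for the glial cadherin Cdh19, -0.28 for Foxd3 and 0.90 for the neurotrophin receptor Ngfr. The deviation was -0.63 for Fabp5 and -0.92 for Fabp4. These are values of 1 array, and the part that differences between cultures or in RNA play in them was not tested.

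**Figure D3:**
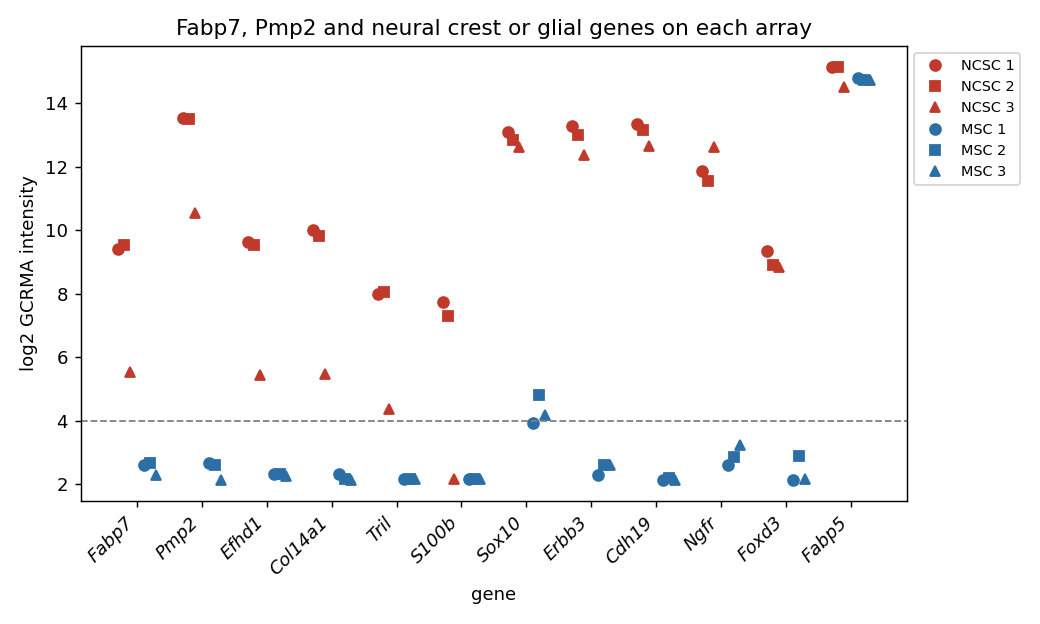
Log2 GCRMA intensity (vertical axis) of Fabp7, Pmp2, the genes with the nearest profile to Fabp7, markers of neural crest and glia, and Fabp5 (horizontal axis), with NCSC in red at the left and MSC in blue at the right of each gene, and a dashed line at the limit of 4. NCSC 3, the red triangle, lies at 5.54 for Fabp7, 10.55 for Pmp2 and 2.15 for S100b, well under NCSC 1 and NCSC 2. It lies within 0.90 of their mean for Sox10, Erbb3, Cdh19, Ngfr and Foxd3.

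The genes with the most similar profiles were found by the root mean square difference between log2 values over the 6 arrays, after each gene's own mean was removed. For Fabp7 these were Efhd1, a mitochondrial calcium-binding protein, at 0.184, the collagen Col14a1 at 0.364 and Tril, a toll-like receptor accessory protein, at 0.524. Efhd1 was at 9.62, 9.52 and 5.43 in NCSC and 2.33, 2.33 and 2.26 in MSC. The likeness was measured over these same arrays, so a low NCSC 3 value follows from the choice of gene. For Fabp4 the nearest were the matrix Gla protein Mgp at 0.483, the growth factor Pdgfd at 0.519 and the kinase Pdk4 at 0.596. For Fabp5 they were Pter at 0.0429, Crlf3 at 0.043 and Nipa1 at 0.0476. Within a distance of 0.5 there were 6591 genes for Fabp5, 1 for Fabp4 and 2 for Fabp7, so a near profile says little for Fabp5, whose values moved little.

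Genes that handle fatty acids before and after the binding proteins changed in both directions. Besides the relatives, 7 lists covered uptake, activation, nuclear receptors, lipid droplets, oxidation, synthesis and known regulators of Fabp7. Over all 8 lists 125 of 134 genes had a probe set and 90 were tested, with 38 higher in NCSC (42.2%), 27 lower (30.0%) and 25 not called, and their median difference was 0.19 against 0.0563 for all tested genes. Of the called genes, 17 were at least 2-fold higher and 15 at least 2-fold lower, a size that 29.0% of all tested genes reached with a call. Without NCSC 3 and MSC 2 together, 40 of 81 list genes were higher and 25 lower, while 72.8% of all 9806 genes tested were called. With all arrays, 72.2% of the tested list genes were called in either direction, against 64.1% of all tested genes. By list this share was 100% for relatives and uptake, 87.5% for Fabp7 regulators, 78.9% for oxidation and 73.3% for lipid droplets. It was 69.2% for activation, 55.6% for nuclear receptors and 46.7% for synthesis.

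**Figure D4:**
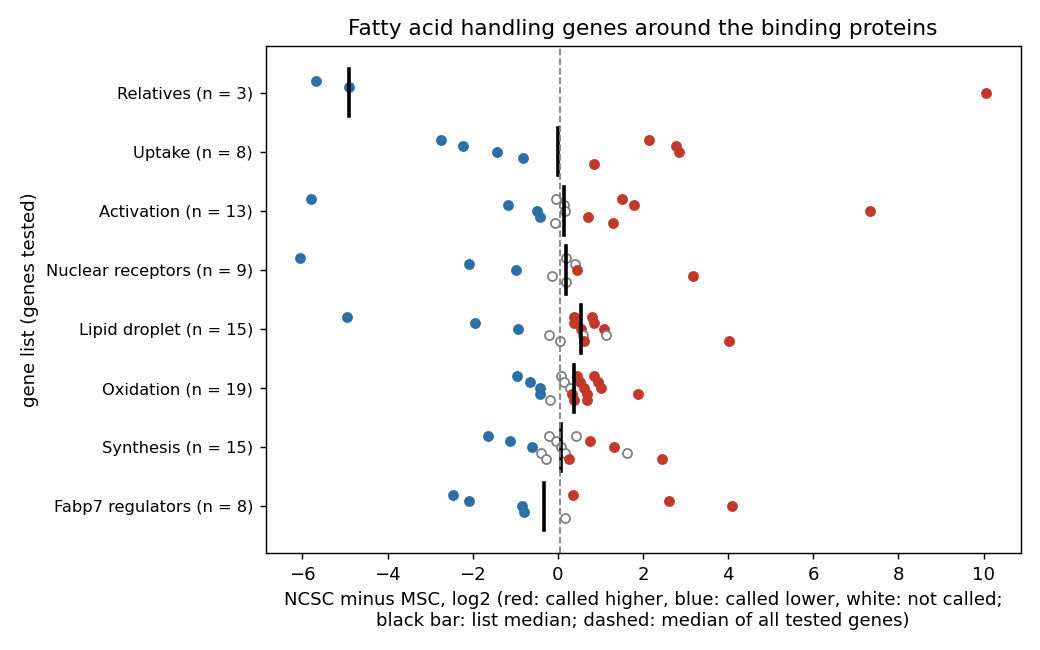
Difference between NCSC and MSC on the log2 scale (horizontal axis) of each tested gene of the 8 lists (vertical axis), red where called higher, blue where called lower and white where not called, with a black bar at the median of a list and a dashed line at 0.0563, the median of all tested genes. The oxidation list has 11 red, 4 blue and 4 white points and a median of 0.39, and Pmp2 (10.06) lies farthest to the right.

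At the plasma membrane, 15 of 17 uptake genes had a probe set and 8 passed the filter. All 8 were called, 4 higher and 4 lower in NCSC. The fatty acid translocase Cd36 stood at 2.12, the floor, on each of the 6 arrays. Of the transport proteins, Slc27a1 was at 3.01, 3.98 and 4.26 in NCSC and 6.04, 6.64 and 6.82 in MSC, at least 5.32-fold lower (adjusted p = 0.000946). Slc27a4 was at 9.29, 9.35 and 8.99 in NCSC and 7.33, 6.92 and 6.92 in MSC, a rise of 2.15 ± 0.155 (adjusted p = 7.19e-05). So the tested transporters differed in opposite directions. The caveolar coat proteins Cav1 and Cavin1 were lower, with differences of -2.23 ± 0.0999 and -1.42 ± 0.12, while Cav2, named after its value was seen, rose by 0.84 ± 0.103 (adjusted p = 0.000658). The dimmer probe set of Cavin1 was at -0.43 (adjusted p = 0.0517 over all probe sets that passed). Lipoprotein lipase Lpl, which frees fatty acids from triglyceride, was at 11.96, 11.83 and 12.07 in NCSC and 9.46, 8.62 and 9.27 in MSC, a rise of 2.84 ± 0.224 (adjusted p = 0.000105). The VLDL receptor Vldlr rose by 2.78 ± 0.68 (adjusted p = 0.0122), or by 1.94 without MSC 2, which was at 8.36 against 10.81 and 10.94 on the other MSC arrays. Its call was lost with no filter on low values (adjusted p = 0.0664).

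Of 16 genes that activate fatty acids to acyl-CoA, bind acyl-CoA or split it, 13 were tested, 5 higher, 4 lower and 4 not called. The synthetase Acsbg1, known from brain, was at 9.77, 9.93 and 10.57 in NCSC and 3.06, 2.35 and 2.87 in MSC, at least 68.2-fold higher (adjusted p = 3.91e-06). Acsl4, which prefers arachidonic acid, and Acsl3 rose by 1.78 ± 0.0856 and 1.51 ± 0.169. Acyl-CoA thioesterases were lower. Acot1 was at least 25.3-fold lower (adjusted p = 5.57e-05), Acot2 fell by 1.16 ± 0.259 on the log2 scale and Acot9 by 0.50 ± 0.0773. Acot1 and Acot2 are near-identical in sequence, so their probe sets may not separate them.

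The list of nuclear receptors, which also holds coactivators and C/EBP factors, had 15 genes, of which 9 were tested, 2 higher, 3 lower and 4 not called. Pparg, the receptor that drives Fabp4 in fat cells, was at 2.65, 2.54 and 2.65 in NCSC and 8.91, 8.37 and 8.72 in MSC, at least 25.4-fold lower (adjusted p = 5.79e-07). Ppard, the partner of Fabp5 in keratinocytes, was at 6.24, 6.35 and 6.23 in NCSC and 6.21, 5.78 and 6.25 in MSC and was not called (0.19 ± 0.144, adjusted p = 0.279), and Ppara, the receptor linked with Fabp1 in liver, did not pass the filter. Rxra, the shared partner of these receptors, rose by 0.45 ± 0.098 (adjusted p = 0.00761), while Rxrb was not called (-0.13 ± 0.14). The coactivator Ppargc1b was at 7.54, 7.80 and 6.76 in NCSC and 4.67, 3.68 and 4.22 in MSC, a rise of 3.18 ± 0.349. Another coactivator, Ppargc1a, did not pass the filter, with its brightest probe set at 4.84, 4.59 and 3.31 in NCSC and 2.12 on all MSC arrays. Nr1h4, the bile acid receptor that drives Fabp6 in ileum, was at 2.65, 2.78 and 2.88 in NCSC and 4.08, 6.13 and 4.35 in MSC, at least 1.81-fold lower (adjusted p = 0.0138), a call lost with values below 4 set to 4 (adjusted p = 0.194) and with no filter (0.0718). Of the adipogenic C/EBP factors, Cebpa (0.40 ± 0.20) and Cebpb (0.18 ± 0.14) were not called. Cebpd fell by 0.98 ± 0.287 on the log2 scale (adjusted p = 0.0241), a call lost without MSC 1, MSC 2 or MSC 3 (adjusted p = 0.0725, 0.0592 and 0.0631).

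Of 23 lipid droplet and lipolysis genes, 15 were tested, 8 higher, 3 lower and 4 not called. The monoglyceride lipase Mgll was at 10.03, 9.95 and 10.13 in NCSC and 5.52, 6.42 and 6.07 in MSC, a rise of 4.03 ± 0.225 (adjusted p = 2.45e-05), with its other probe sets that passed at 3.76 and 4.84. The triglyceride lipase Pnpla2 rose by 1.09 ± 0.151, and its inhibitor G0s2 was at 2.33, 3.00 and 2.33 in NCSC and 7.50, 7.25 and 7.80 in MSC, at least 11.5-fold lower (adjusted p = 1.07e-05). Hilpda, another inhibitor of that lipase, fell by 1.95 ± 0.134 and the seipin gene Bscl2 by 0.94 ± 0.209 on the log2 scale, and the phosphatidate phosphatase Lpin1 rose by 0.86 ± 0.194. Cidea, Cideb, Cidec, Lipe, Plin5, Pnpla3 and Fitm1 had probe sets but did not pass the filter. The perilipins Plin2, Plin3 and Plin4, named after their values were seen, did pass. Plin2 rose by 0.39 ± 0.122 (adjusted p = 0.0301) and Plin3 by 0.55 ± 0.14 (adjusted p = 0.0138). The dimmer Plin4 was at 5.86, 6.02 and 5.33 in NCSC and 5.35, 5.32 and 4.76 in MSC. It was not called (0.60 ± 0.238, adjusted p = 0.0676).

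Of 22 oxidation genes 19 were tested, and 11 were higher (57.9%, against 35.0% of all tested genes), 4 lower and 4 not called. The list's median difference was 0.39, and 2 of the 11 rises reached 2-fold. The peroxisomal enzyme Ehhadh was at least 3.18-fold higher, at 5.99, 5.95 and 5.70 in NCSC and 4.48, 3.34 and 4.14 in MSC. The mitochondrial hydratase Echs1 and the trifunctional protein subunit Hadha rose by 1.01 ± 0.191 and 0.95 ± 0.104. Decr1 and Eci2, which prepare unsaturated fatty acids for oxidation, fell by 0.96 ± 0.104 and 0.66 ± 0.137 on the log2 scale. Cpt1c, the brain form of the carnitine transferase, fell by 0.43 ± 0.144 (adjusted p = 0.0383), a call lost without NCSC 1, NCSC 2 or NCSC 3 (adjusted p = 0.0701, 0.0893 and 0.0867).

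Of 21 synthesis genes 15 were tested, 4 higher, 3 lower and 8 not called, with a median of 0.08. The desaturases Scd1 and Scd2 rose by 2.45 ± 0.0915 and 1.31 ± 0.144, with adjusted p = 4.15e-06 and 0.00041. Scd1 was at 13.41, 13.27 and 13.21 in NCSC and 10.92, 10.76 and 10.86 in MSC. Fads1, a desaturase of polyunsaturated fatty acids, rose by 0.76 ± 0.217 (adjusted p = 0.0218), a call lost without NCSC 1 or NCSC 2 (adjusted p = 0.0741 and 0.0746). The elongase Elovl6 fell by 1.12 ± 0.387 on the log2 scale (adjusted p = 0.0433), a call lost without NCSC 1, NCSC 2, NCSC 3, MSC 1 or MSC 3 (adjusted p = 0.119, 0.0772, 0.0933, 0.129 and 0.129). Elovl7 was at least 1.18-fold lower, with 3.53, 2.12 and 2.12 in NCSC and 4.12, 4.19 and 4.41 in MSC, and was not called with values below 4 set to 4 (adjusted p = 0.0662). Fads3 fell by 0.60 ± 0.116 on the log2 scale, although another of its probe sets was higher in NCSC by 0.41 (adjusted p = 0.0476 over all probe sets that passed).

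Factors known to act on Fabp7 in the nervous system were divided. Of 12 genes 8 were tested, 3 higher, 4 lower and 1 not called. The POU factor Pou3f1, a regulator of Schwann cell maturation, was at 6.16, 5.84 and 6.67 in NCSC and 2.12, 2.13 and 2.12 in MSC, at least 4.66-fold higher (adjusted p = 1.53e-05). The receptor Notch1 was at 11.83, 11.67 and 11.47 in NCSC and 9.06, 9.07 and 9.04 in MSC, a rise of 2.60 ± 0.108. The Notch target Hes1 rose by 0.35 ± 0.111 (adjusted p = 0.0304), a call lost without NCSC 1, NCSC 2, MSC 1, MSC 2 or MSC 3 (adjusted p = 0.0955, 0.0938, 0.0546, 0.0776 and 0.0733). Of the NFI factors, whose partial palindrome is marked in the Fabp7 promoter, Nfix fell by 2.46 ± 0.113 on the log2 scale. Nfia fell by 2.08 ± 0.108 and Nfib by 0.85 ± 0.137 on that scale, and Nfic was not called (0.16 ± 0.087). The remaining lower gene, Rbpj, named after its value was seen, fell by 0.79 ± 0.105 on the log2 scale (adjusted p = 0.000917). Pax6, Pou3f2, Pou3f3 and Hes5 did not pass the filter.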

How the data were processed

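RNA was measured on Affymetrix arrays, 3 of NCSC and 3 of MSC. The authors deposited linear intensities of probe sets, made with GCRMA, per the submitters' processing notes; version and genome build are not given in the sources used here. The scale was read from the values, the lowest being 4.36, and each was taken to log2 without further normalization. Probe sets of 1 gene, updated to RefSeq symbols, were kept when above 4 on at least 3 arrays, and the brightest stood for a gene. Differences are NCSC minus MSC, fitted with limma 3.58.1 in R 4.3.3 (two-sided, adjusted p under 0.05), a fit tested on simulated data. The simulation had 200 changed genes, normally distributed noise, no floor and no array that stood apart, so it does not cover those features of these arrays. Standard errors of the members that passed the filter come from a fit over 18640 probe sets. Fold bounds set values of the dimmer group under 4 to 4. Named genes are the members, tested relatives and nuclear receptors, up to 3 called genes per direction with the largest difference of each other list, the 3 nearest profiles and 5 neighbours on either side of the cluster. Members and lists were chosen with earlier results of these data known. The number of arrays limits the precision.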

Additional observations from a re-analysis of the deposited data

How the results depend on the processing

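Over 15 alternatives, 39 of the 48 named list genes kept their call or stayed uncalled wherever they were tested. The other 9 lost a call under at least 1 alternative, 8 of them with no filter on low values, and no direction of a called gene turned. Pmp2, Acsbg1, Pparg, Acot1 and G0s2 were tested in only 11 alternatives, and Pou3f1, Nr1h4 and Elovl7 in 10. Pmp2, Acsbg1 and Pou3f1 did not pass the filter without any 1 NCSC array. The other genes of these did not pass it without any 1 MSC array, so those refits do not bear on their calls. The counts over all lists stayed within 1.5 times of 38 higher and 27 lower: 30 to 37 higher and 18 to 27 lower when 1 array was left out. In those refits 85 to 87 list genes were tested, and 52.9% to 67.3% of all tested genes were called. The Fabp4 difference of -10.62 and the Fabp7 difference of 5.64 rest on values under the limit: setting values below 4 to 4 moved them to -9.56 and 4.15, by the construction of that alternative. Leaving out 1 array gave -11.21 to -10.31 for Fabp4 and 0.09 to 0.40 for Fabp5. In the refits Fabp7 did not pass the filter without any 1 NCSC array, without NCSC 3 and MSC 2 together or with the filter at 6, and its difference was 5.52 to 5.71 without 1 MSC array. With the replicate number as a block, 37 of 90 list genes were higher and 26 lower, while 59.6% of all tested genes were called. Elovl6 and Hes1 were not called (both adjusted p = 0.0655). The same-numbered arrays did not deviate together (r = -0.0985, 0.0621 and 0.0729 across genes), so the numbers were not taken as pairs. Without the filter Cebpd, Cpt1c, Elovl6, Elovl7, Fads1, Hes1, Nr1h4 and Vldlr were not called (adjusted p from 0.0588 to 0.157), and with the mean of probe sets Fads1 and Fads3 were not (both 0.176). Signal near background limits Fabp3, Nr1h4 and Elovl7, whose differences rest on values at or near the floor.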

Other observations

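Among the 30 genes at least 4-fold lower on NCSC 3 than on the other NCSC arrays were the ion channel genes Kcna6 (9.11, 8.63 and 5.99 in NCSC, and 3.62, 4.12 and 4.12 in MSC), Kcnj10 (8.34, 7.91 and 5.31 in NCSC, and 3.64, 3.64 and 3.14 in MSC), Kcnmb4 (9.78, 9.98 and 7.74 in NCSC, and 5.82, 5.83 and 5.83 in MSC) and Nalcn (7.87, 6.90 and 4.97 in NCSC, and 2.62, 2.38 and 2.38 in MSC). Among the 10501 genes that passed the filter, the largest downward deviation was that of the retinol dehydrogenase Adh7, at 9.23, 9.35 and 4.54 in NCSC and 8.37, 7.97 and 8.44 in MSC. These genes were chosen after their values were seen, and no explanation was tested.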
